A study of Mus musculus with 14 samples.

Results

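The 10 genes described here encode the inducible parts of the MHC class I pathway: the immunoproteasome subunits Psmb8, Psmb9 and Psmb10, the proteasome activator subunits Psme1 and Psme2, the peptide transporter subunits Tap1 and Tap2, the peptide-editing chaperones Tapbp and Tapbpl, and the trimming peptidase Erap1. They were taken by exact symbol from the 13130 genes that the authors compared, and all 10 were found there. Messenger RNA came from the nucleus accumbens, the ventral striatal part of the reward circuit, of 14 C57BL/6 mice homozygous for loxP-flanked Tet1 alleles. In 7 mice an adeno-associated virus (AAV) delivered Cre recombinase to the region, and in the 7 controls, which carried the same floxed alleles, AAV delivered green fluorescent protein (GFP). Tissue was collected 4 weeks later and each mouse gave its own library. The labels do not give the promoter driving Cre, the serotype, the floxed exons or the age and sex of the mice. Tet1 stays intact in cells that the virus did not reach.

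MHC class I molecules show peptides from inside the cell to CD8+ T cells. Most of these peptides are cut by the proteasome, pumped into the endoplasmic reticulum (ER) by the Tap1-Tap2 transporter, trimmed there by Erap1 and loaded on class I chains by tapasin, the product of Tapbp, together with general ER chaperones. Interferon gamma induces Psmb8, Psmb9 and Psmb10, which replace the catalytic subunits Psmb5, Psmb6 and Psmb7 in newly built proteasomes. In the healthy brain the constitutive subunits predominate.

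The only values available were the authors' deposited table of AAV-Cre against AAV-GFP, with 1 log2 fold change, 1 mean level and p-values per gene. No value per mouse is held there, so the spread within a group, overlap of groups and depth of the libraries are unknown. A positive log2 fold change is read as higher in AAV-Cre, from the name of the deposited table. Standard errors and 95% limits were derived from the fold change and its t statistic, and every value after ± is such a standard error. Striatal tissue was met by the striatal projection neuron markers, all 8 of which were measured. In the authors' deposited table Ppp1r1b stood at a mean of 1031 CPM (reads scaled to a common library size), Penk at 1280 and Drd1a at 243. No marker of the nucleus accumbens alone was looked at, so the part of the striatum was not checked. For Tet1 itself that table gives -0.13 ± 0.11 on the log2 scale, with 95% limits of -0.36 to 0.10 and an adjusted p of 0.921 by the authors' limma-style test. Reads outside the deleted exons count toward this value, so it does not check the deletion.

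Sequence near the start sites is shown first, because interferon acts on these genes through short DNA elements. RefSeq promoter windows on GRCm38.p6, from 250 bases before to 50 bases after the start, were matched for 8 of the 10 genes, all but Tap2 and Tapbpl, in 9 windows. They were searched on both strands for GAAANNGAA, a core of the interferon-stimulated response element, and for TTCNNNGAA, the gamma-activated site, which reads the same on either strand. A kappa B-like core, GGGANTTTC, was the other motif searched. The first was found in Erap1 and Psme1, in 2 of the 9 windows of the 8 genes, against 8.56% of all 32851 promoter windows. The gamma-activated site was found in Psmb8 alone, in 1 of the 9 windows, against 8.30% of all windows. The kappa B-like core was found in 0 of the 9, against 1.11%. Matches stand in capitals below, 30 bases each on the plus strand of GRCm38.p6, which is the coding strand of all 3 genes.

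Erap1, chr13:74639836-74639865: ggtccaccTTCACTTTCACTTTCggtcccg

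Psme1, chr14:55578493-55578522: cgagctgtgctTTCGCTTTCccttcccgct

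Psmb8, chr17:34198087-34198116: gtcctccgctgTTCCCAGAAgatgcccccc

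The capitals in Erap1 are 2 overlapping copies of the response element core on the opposite strand, from base -9 to base 6 relative to the RefSeq start. In Psme1 the match, also on the opposite strand, runs from base 11 to base 19, inside the RefSeq transcript. In Psmb8 it runs from base -97 to base -89, upstream of that start but within the span that GENCODE M21 gives the gene. Psmb9 and Tap1 are transcribed away from each other from RefSeq starts that lie 225 bases apart. Their windows hold none of the 3 motifs in these exact letters. A match describes these letters only and was not tested as a binding site.

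In the authors' deposited table all 10 genes stood higher after AAV-Cre than after AAV-GFP, with log2 fold changes from 0.23 to 1.28 (median 0.41). Over all 13130 genes the median was 0.02 and 59.1% were above 0. None of the 10 passed an adjusted p of 0.05 by the authors' limma-style test, nor did any other gene (0% of the table), and the adjusted p of the 10 lay between 0.695 and 0.921. At an unadjusted p under 0.05, 9 of the 10 were higher, all but Psmb10, where 4.62% of all genes were. None of the 10 was lower at that threshold, against 0.533% of all genes. At an unadjusted p under 0.01 there were 6 of 10, against 1.01%. Of the 100 genes with the smallest p in the table, 6 were among these 10, and Tap2 held rank 6 overall. The 10 genes were chosen with earlier results of these data known, so these counts and shares describe them and test nothing. In bulk tissue, more cells of a type and more RNA per cell cannot be told apart, and markers of microglia (median 0.32 over 9 genes) stood higher in the same table.

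**Figure D1:**
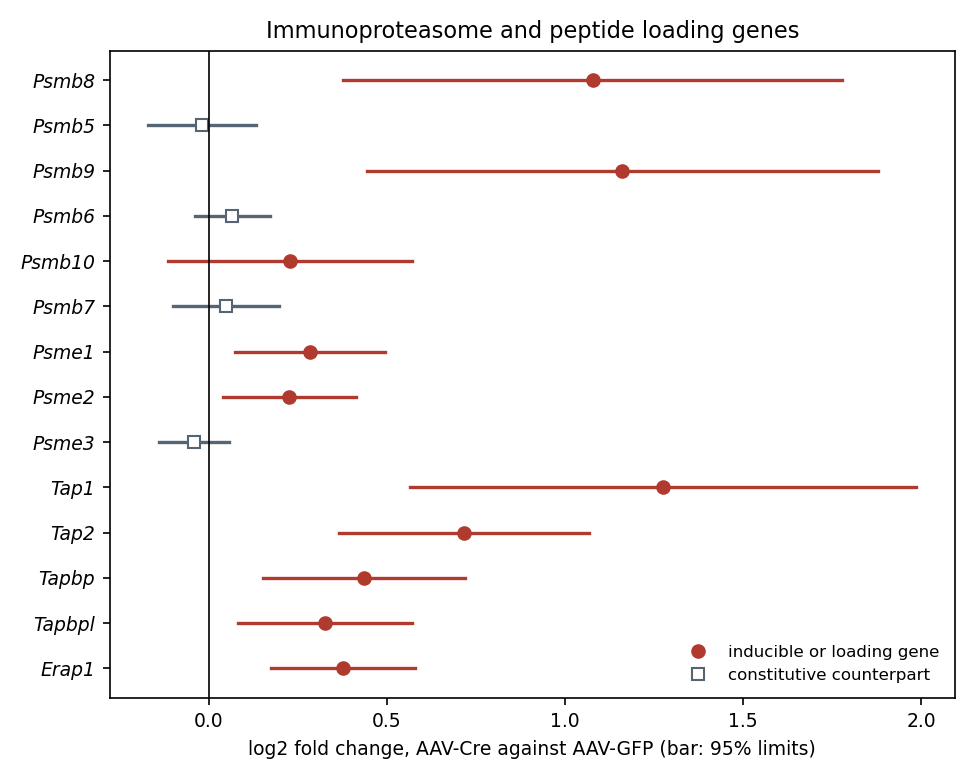
Log2 fold change of AAV-Cre against AAV-GFP for each gene, with 95% limits derived from the authors' deposited table. Filled circles are the 10 inducible or loading genes and open squares the constitutive counterparts Psmb5, Psmb6, Psmb7 and Psme3. Limits lie above 0 for 9 of the 10 and span 0 for Psmb10 and for all the squares.

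Of the 3 catalytic subunits, Psmb9 and Psmb8 stood higher at an unadjusted p under 0.05 and Psmb10 did not pass. Psmb9, whose product takes the place of the Psmb6 product, reached 1.16 ± 0.34 (log2 fold change, the authors' deposited table). That is 2.24 times the control level, with 95% limits of 1.36 to 3.68 times (unadjusted p = 0.00354, adjusted p = 0.710, limma). Psmb8, which replaces Psmb5, stood at 1.08 ± 0.33 there, or 2.11 times with limits of 1.30 to 3.43 times (unadjusted p = 0.00501, adjusted p = 0.781, limma). For Psmb10, which replaces Psmb7, the value was 0.23 ± 0.16, or 1.17 times, and its limits of 0.924 to 1.48 times include no change. On the log2 scale its limits of -0.11 to 0.57 overlap those of Psmb8 (0.38 to 1.78) and Psmb9 (0.44 to 1.88). Whether Psmb10 differs from its partners was not tested, since the covariance of a pair of genes over the mice is not in the table.

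The constitutive catalytic subunits lay close to 0 in the authors' deposited table. On the log2 scale Psmb5 differed by -0.02 ± 0.07, Psmb6 0.07 ± 0.05 and Psmb7 0.05 ± 0.07. The 95% limits of Psmb5 were -0.17 to 0.13, those of Psmb6 -0.04 to 0.17 and those of Psmb7 -0.10 to 0.20, so a change of these subunits by the size seen for Psmb8 or Psmb9 lies outside their limits.

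Levels per exon length set Psmb8 and Psmb9 far below their constitutive counterparts, and Psmb10 less so. The mean level over all libraries, in CPM per kilobase of annotated exon, was 1.30 for Psmb8 and 47.3 for Psmb5, a ratio of 36.5. Psmb9 stood at 1.04 and Psmb6 at 38.0, a ratio of 36.6. Psmb10, at 9.29 against 28.7 for Psmb7, was the nearest of the 3 catalytic subunits to its counterpart, with a ratio of 3.08. Exon length joins all annotated transcripts of a gene. With the longest transcript instead, the 3 ratios were 20.6, 56.0 and 2.85.

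If the authors' model holds nothing but the groups of 7, both group means lie equally far from the mean level on the log2 scale. On that reading Psmb9 would stand at 2.54 CPM in AAV-GFP and 5.67 in AAV-Cre, Psmb8 at 3.02 and 6.37, and Psmb10 at 14.6 and 17.1.

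The activator subunits stood slightly above control. Psme1 and Psme2 encode the alpha and beta chains of a ring that opens the end of the proteasome, and they lie within the same stretch of chromosome 14. For Psme1 the authors' deposited table gives 0.28 ± 0.10 (log2 fold change), 21.7% above the control level (95% limits 0.07 to 0.49 on the log2 scale, adjusted p = 0.919, limma). The value of Psme2 was 0.23 ± 0.09 there, 16.9% above control (limits 0.04 to 0.41, adjusted p = 0.919, limma). Their levels per exon length were 14.95 and 14.6 CPM per kilobase, but 16.6 and 26.7 with the longest transcript of each gene as the length, so their order by level is uncertain. Psme3, which encodes a nuclear activator of the same family and is not part of the class I pathway, had -0.04 ± 0.05 there. Its level per exon length was 1.88 times that of Psme1 and 1.93 times that of Psme2, or 1.87 and 1.16 times with the longest transcript.

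The transporter genes had the highest and the fourth highest fold changes of the 10. Tap1 stood at 1.28 ± 0.33 (log2 fold change, the authors' deposited table), 2.42 times the control level with 95% limits of 1.48 to 3.96 times (unadjusted p = 0.00164, adjusted p = 0.695, limma). Tap2 stood at 0.72 ± 0.16 there, or 1.64 times with limits of 1.29 to 2.095 times, and its unadjusted p of 0.000572 was the smallest of the 10. The products of both genes form 1 transporter. Their mean levels per exon length were 1.48 and 1.87 CPM per kilobase, and the 95% limits of their fold changes overlap. Under the reading with groups only, Tap1 would go from 5.199 to 12.6 CPM and Tap2 from 5.53 to 9.07.

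The chaperone genes and Erap1 had log2 fold changes from 0.33 to 0.44, each at an unadjusted p under 0.05. Tapbp encodes tapasin, which bridges the transporter and the class I chain, with 0.44 ± 0.13 as its log2 fold change, by the authors' deposited table (95% limits 0.15 to 0.72, adjusted p = 0.781, limma). Tapbpl, whose product edits peptides on class I outside the loading complex, stood at 0.33 ± 0.11 there (limits 0.08 to 0.57, adjusted p = 0.919, limma). Erap1, the ER aminopeptidase that shortens peptides to fit class I, stood at 0.38 ± 0.10 (limits 0.17 to 0.58, unadjusted p = 0.00128, adjusted p = 0.695, limma). Erap1 held rank 18 by p over the whole table although its fold of 1.30 held rank 368 by size. The 95% limits of all 3 overlap those of Tap2, and the difference from the transporter genes was not tested.

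Standard errors ran from 0.09 for Psme2 to 0.34 for Psmb9, and the 3 genes with fold changes above a log2 value of 1 had the 3 largest errors. Relative to the 500 genes nearest in level, the standard error of Tap1 was 3.15 times the median, that of Psmb8 2.48 times and that of Psmb9 2.42 times. For Tapbpl and Erap1 the ratio was 1.09 and 1.13, close to that of other genes at their level. Over the 10 genes the median ratio was 1.76. Some class I and class II genes described below had larger ratios, such as H2-Aa (7.28), H2-K1 (5.69) and B2m (4.49). Others did not, such as H2-DMb2 (1.56). A standard error above that of genes at the same level reflects more spread among mice than the authors' model found for such genes, but which mice stood apart cannot be read from the table.

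**Figure D2:**
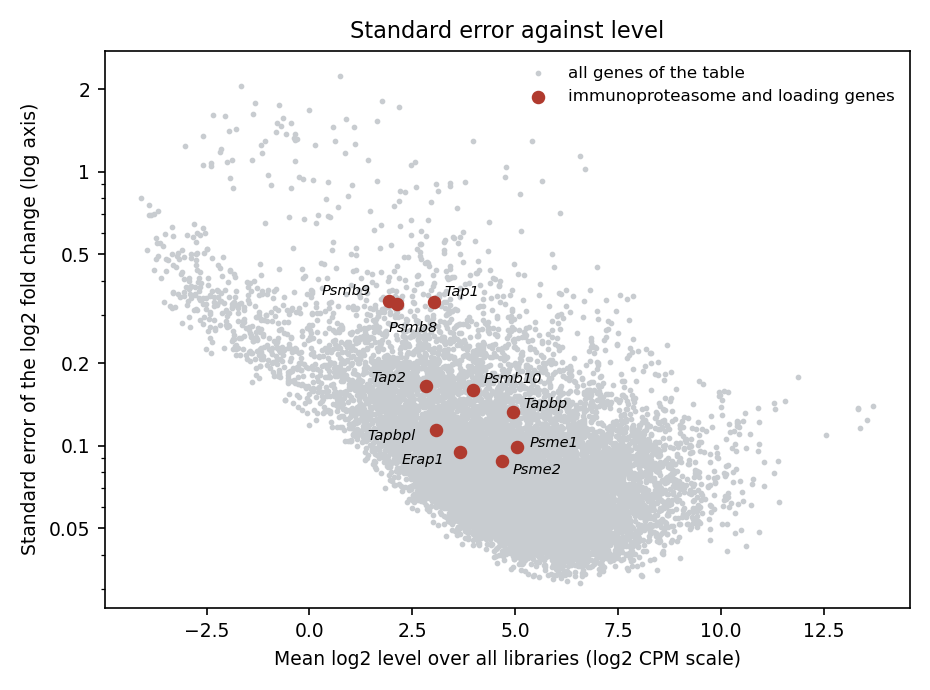
Standard error of the log2 fold change (log axis) against the mean log2 level of each gene over all libraries. Grey points are all 13130 genes of the authors' deposited table and red points the 10 genes. Tap1, Psmb8 and Psmb9 lie in the upper part of the cloud at their level, and Tapbpl and Erap1 near its middle.

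The mean levels of the 10 genes ran from 3.79 CPM for Psmb9 to 33.0 CPM for Psme1 in the authors' deposited table. The lowest gene of the table lay at a log2 level of -4.09, and 9.21% of its genes lay below Psmb9, so none of the 10 stood at the edge of the unknown filter on low genes.

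Fold changes were also read by position in the genome. Psmb9, Tap1, Psmb8 and Tap2 lie in a row within 34.3 kb of the MHC class II region on chromosome 17, and Tapbp lies on the same chromosome near the class I gene H2-K1. On GRCm38, by GENCODE M21, Psmb9 (ENSMUSG00000096727.1) spans 34181987 to 34187764 on the minus strand. On the plus strand Tap1 (ENSMUSG00000037321.13) spans 34187553 to 34197225, Psmb8 (ENSMUSG00000024338.10) 34197721 to 34201454 and Tap2 (ENSMUSG00000024339.8) 34203527 to 34216321. Tapbp (ENSMUSG00000024308.10) spans 33915899 to 33929292, also on the plus strand. The 5 genes on chromosome 17 ranged from 0.44 to 1.28 in log2 fold change, with 1.08 as the median. The 5 elsewhere (Psmb10 on 8, Psme1 and Psme2 on 14, Tapbpl on 6, Erap1 on 13) ranged from 0.23 to 0.38, with 0.28 as the median. By the same annotation Psmb10 (ENSMUSG00000031897.8) spans 105935735 to 105938444, Psme1 (ENSMUSG00000022216.12) 55578123 to 55581529 and Psme2 (ENSMUSG00000079197.6) 55587441 to 55591113. Tapbpl (ENSMUSG00000038213.7) spans 125223933 to 125231860 and Erap1 (ENSMUSG00000021583.6) 74639568 to 74693201. Psme1 and Erap1 lie on the plus strand and Psmb10, Psme2 and Tapbpl on the minus strand. The ranges of fold change do not overlap, but the 95% limits of Tapbp (0.15 to 0.72) and Erap1 (0.17 to 0.58), which bound the gap, do. The split by chromosome was drawn with the values known and was not tested.

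Genes on both sides of the cluster of 4 also stood higher, except for 1. Within 100 kb of the cluster the authors' deposited table holds 7 other genes. Of these, 6 belong to MHC class II and were higher at an unadjusted p under 0.05, against 4.62% of all genes. The chromatin reader gene Brd2 did not pass. The peptide-receptor genes H2-Aa (log2 fold change 2.53 ± 0.60), H2-Ab1 (2.44 ± 0.56) and H2-Eb1 (2.40 ± 0.56) had larger values than any gene of the cluster in the authors' deposited table. The class II loading genes H2-DMb1 (0.75 ± 0.26), H2-DMb2 (0.53 ± 0.24) and H2-DMa (0.34 ± 0.16), on the other side, stood lower than Psmb9 and Tap1. Brd2, on the same side as the H2-DM genes, had 0.02 ± 0.04 there.

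**Figure D3:**
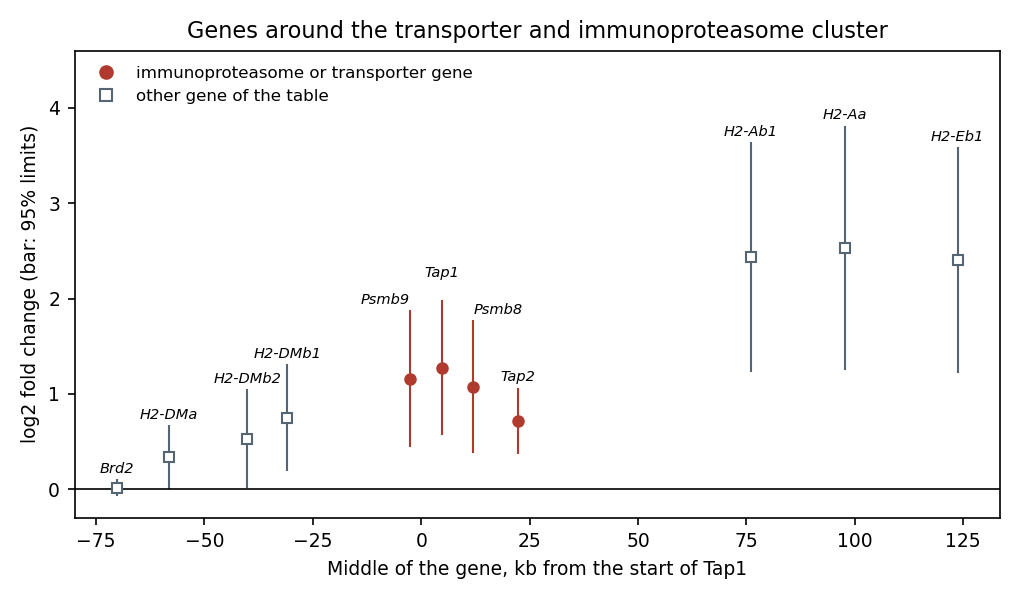
Log2 fold change with 95% limits of each measured gene within 100 kb of the Psmb9, Tap1, Psmb8 and Tap2 cluster, placed by the middle of the gene in kb from the start of Tap1. Circles are the 4 cluster genes, between 0.72 and 1.28, and squares the 7 other genes, from 0.02 for Brd2 to 2.53 for H2-Aa.

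Neighbours of the other genes mostly lay near 0 in the authors' deposited table. Around Tapbp 16 genes were measured, with a median log2 fold change of 0.05. There H2-K1 stood at 1.33 ± 0.36, the histone chaperone gene Daxx at 0.14 ± 0.05 and Gm4134 at -0.61 ± 0.28. Around Psme1 and Psme2 the median of 15 neighbours was 0.02, with Dhrs4 at 0.16 ± 0.06 and the interferon signalling gene Irf9 at 0.29 ± 0.15. The 9 neighbours of Psmb10 had a median of 0.07, with Thap11 at 0.14 ± 0.05, and the 9 of Tapbpl 0.01. Next to Erap1, Cast was the single measured neighbour, at 0.03 ± 0.20. At an unadjusted p under 0.05, 2 of 16 neighbours of Tapbp were higher and 1 was lower. Of the neighbours of Psme1 and Psme2, 1 of 15 was higher, and of those of Psmb10 1 of 9. None passed around Tapbpl or Erap1. Over all genes 4.62% were higher and 0.533% lower.

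Some exons of these genes overlap other genes. The sources used here do not give the counting tool or its use of strand. Psmb9 and Tap1 share 212 exonic bases on opposite strands, 5.79% of the exon length of Psmb9 and 3.87% of that of Tap1. Erap1 shares 834 bases with Cast, 11.5% of its own, and Psme1 shares 14 with Emc9, which lay at -0.005 on the log2 scale in the authors' deposited table. Tapbp shares 149 bases on the same strand with Zbtb22, which stood at 0.01 ± 0.05 there. The other overlaps are with predicted genes on the opposite strand that have no row in the table used here. Psmb8 shares 14.7% of its exon length with Gm20496, Tap2 4.36% with Gm20496 and 14.1% with Gm15821, and Tapbp 24.9% with Gm19412. The overlaps' part in the values was not tested.

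Upstream and downstream steps of the class I pathway were read from gene lists, without a test of the lists. The constitutive proteasome as a whole stood near 0 in the authors' deposited table. Its 32 subunits of core and regulatory cap include Psmb5, Psmb6 and Psmb7, described above. Of the 32, 0 passed an unadjusted p of 0.05 in either direction, where 4.62% of all genes were higher and 0.533% lower. For so few genes that count lies near those shares. The median log2 fold change was 0.04 and the range -0.03 to 0.08. Of the 32, 26 were above 0 and 6 below, where 59.1% of all genes were above 0. Among the core subunits without catalytic activity, all 11 were above 0, and Psmb4 (0.07 ± 0.05), Psmb1 (0.08 ± 0.05) and Psmb2 (0.07 ± 0.05) had the smallest p. In the cap these were Psmc2 (0.05 ± 0.05), Psmd8 (0.05 ± 0.06) and Adrm1 (0.05 ± 0.05). Of the other activators and the inhibitor, Psme4 stood at -0.07 ± 0.05 and Psmf1 at 0.02 ± 0.05.

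Of the assembly factors, 1 of 5 was higher at an unadjusted p under 0.05 in the authors' deposited table, against 4.62% of all genes. That gene, Psmg4, encodes a chaperone of proteasome assembly and stood at 0.25 ± 0.08 on the log2 scale (adjusted p = 0.858, limma). Psmg1, another assembly chaperone, stood at 0.12 ± 0.06. Pomp, whose product guides the building of both proteasome forms and is needed for the immunoproteasome, stood at 0.04 ± 0.06.

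Peptidases and ER chaperones shared with other pathways were close to 0 in the authors' deposited table. None of 7 cytosolic and ER-linked peptidases passed an unadjusted p of 0.05, where 4.62% of all genes were higher and 0.533% lower. Their median log2 fold change was 0.003, with Blmh at 0.07 ± 0.05, Lnpep at -0.18 ± 0.15 and the interferon-inducible aminopeptidase gene Lap3 at 0.09 ± 0.08. None of 4 general chaperones of class I loading passed either. For lists this short both counts lie near the shares of all genes. Pdia3 stood at 0.08 ± 0.05, Calr, which encodes calreticulin, at 0.04 ± 0.06 and Canx, which encodes calnexin, at -0.01 ± 0.06.

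The class I chains that receive the peptides were higher in all 8 measured genes, each at an unadjusted p under 0.05 (4.62% of all genes). Their median log2 fold change was 1.33 in the authors' deposited table. H2-K1 (1.33 ± 0.36), H2-Q4 (1.63 ± 0.44) and H2-Q7 (2.12 ± 0.59) had the smallest p, and B2m, the shared light chain, stood at 1.11 ± 0.31. Class I heavy chain genes are near copies of each other, so reads may be divided among them. The adjusted p of the 8 lay at 0.695 or above by the authors' limma-style test. The values of Tap1, Psmb9 and Psmb8 lay inside the range of the 8, 0.81 to 2.12, and those of the other 7 genes below it.

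**Figure D4:**
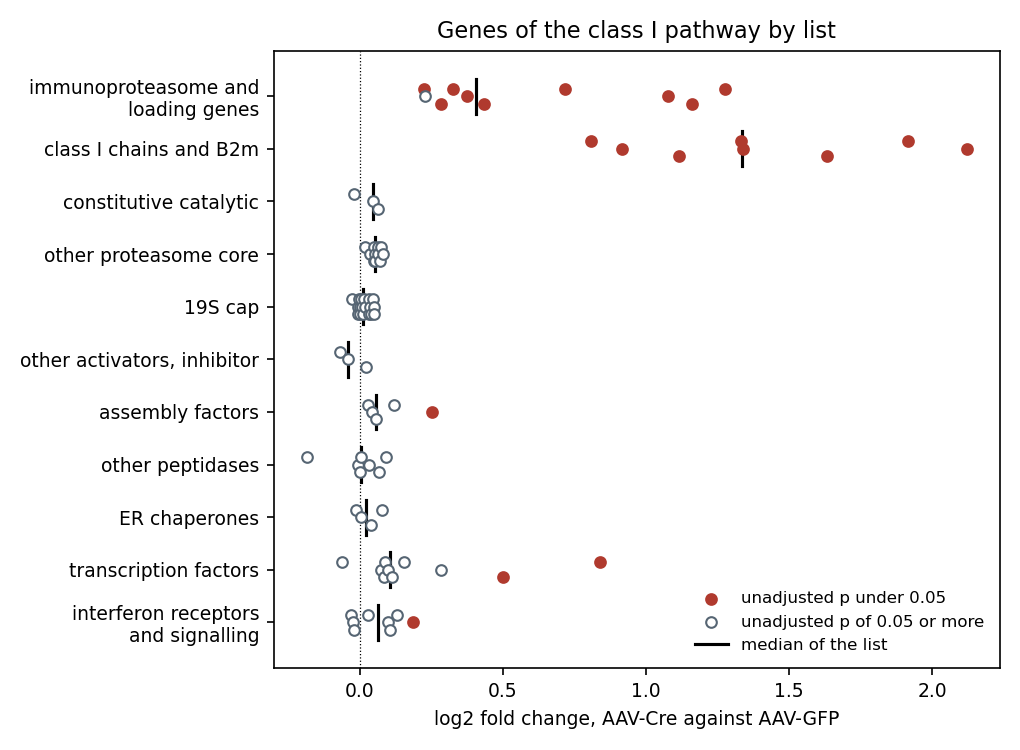
Log2 fold change of AAV-Cre against AAV-GFP for every measured gene of each list, from the authors' deposited table. Filled points have an unadjusted p under 0.05, open points do not, and the bar is the list's median. The 10 genes have a median of 0.41 and the class I chains 1.33, and the constitutive proteasome lists lie between -0.03 and 0.08.

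Among 10 transcription factors of the list that act on class I genes, 2 were higher at an unadjusted p under 0.05, against 4.62% of all genes. None was lower at that threshold, and the 10 log2 fold changes had a median of 0.10 in the authors' deposited table. Irf1, a factor known to drive Tap1 and Psmb9, had 0.84 ± 0.23 (adjusted p = 0.695, limma). Irf8, a factor of myeloid cells and microglia, had 0.50 ± 0.21 (adjusted p = 0.919, limma). The RFX genes of the class I and class II enhanceosome stood at 0.11 ± 0.06 (Rfxap), 0.09 ± 0.07 (Rfxank) and -0.06 ± 0.10 (Rfx5). Nlrc5 and Ciita, coactivators of class I and class II genes, have no row in the table used here.

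Interferon receptor and signalling genes were nearer 0, with 0.07 as the median log2 fold change in the authors' deposited table. At an unadjusted p under 0.05, 1 of 8 was higher, against 4.62% of all genes. Ifngr1, a chain of the interferon gamma receptor, stood at 0.19 ± 0.09, Ifnar1 at 0.13 ± 0.07 and Ifnar2 at 0.10 ± 0.07. None of the 8 interferon genes listed has a row in the table used here, so no level of interferon itself can be given.

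Most measured markers of immune cells stood higher beside these genes, none at an adjusted p under 0.05 by the authors' limma-style test. Of 9 microglia markers, 4 were higher at an unadjusted p under 0.05 in the authors' deposited table, against 4.62% of all genes. The 9 log2 fold changes ran from 0.02 to 0.72, with 0.32 as the median. C1qa stood at 0.72 ± 0.25, Aif1 at 0.50 ± 0.18 and C1qb at 0.56 ± 0.22, while P2ry12 stood at 0.02 ± 0.12. The table holds 2 of 10 markers of T and NK cells, Trac at 1.39 ± 0.40 and a mean of 0.349 CPM, and Cd4 at -0.05 ± 0.17 and a mean of 56.7 CPM. The other 8, Cd3d, Cd3e, Cd3g, Cd8a and Ptprc among them, have no row in the table used here. Of the 5 B cell markers the authors' deposited table holds Igkc (2.92 ± 1.03, at a mean of 104 CPM) and Cd79a (1.67 ± 0.67, at a mean of 0.909 CPM). Endothelial markers had a median of 0.21 over 5 genes, led by Cldn5 (0.29 ± 0.12). Astrocyte markers had a median of 0.09 over 7 genes, 5 higher and 2 lower, and 1 passed an unadjusted p of 0.05. That gene, Slc1a3, stood at 0.20 ± 0.08, and Gfap, which did not pass, at 0.69 ± 0.34. Oligodendrocyte markers had a median of 0.05 and the projection neuron markers 0.07. The part of these cells in the values of the 10 genes was not tested, and summed marker levels per group need values per mouse.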

How the data were processed

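Polyadenylated RNA of 14 mice, 7 per group, was sequenced by the authors. Per the labels' protocols, libraries were made with an Illumina TruSeq mRNA kit from Trizol RNA. The submitters' processing notes name TopHat2 2.0.9, Bowtie2 2.1.0, GRCm38 and mm10. Not given in the sources used here were the counting tool, annotation, filter and model.

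The deposited log2 values are a fold change and a mean level per gene, per the file headers, whose column names are those of limma. The linear mean levels sum to 991364, so they are read as CPM. Of the deposited score columns, t and B per the file headers, only the moderated t entered the analysis. The deposited p-value columns hold unadjusted and adjusted p, the latter equal to a Benjamini-Hochberg adjustment over all 13130 genes.

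The standard error was the log2 fold change divided by t. The degrees of freedom were solved from the deposited t and p of a part of the genes and were 15.15 in each of these. A t distribution with that value gave the 95% limits. Neither the planned tests on values per library nor a paired fit could be run. The arithmetic of these derivations was checked on simulated data, which does not test the deposited values. Stable IDs of 13063 genes matched GENCODE M21 on GRCm38, which gave positions and exon lengths. Drd1 was matched by ID to Drd1a. A planned comparison of protein sequences was not made.

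The genes and lists were chosen with earlier results of these data known. A gene of the transcription factor list is not reported here, and the list's counts and median leave it out. All 10 genes are named, with up to 3 of smallest p per list, their counterparts and up to 3 neighbours per locus. B2m, H2-DMb1, H2-DMb2, H2-DMa, Brd2, Rfxank, Rfx5, P2ry12, Drd1a, Zbtb22 and Emc9 were named after their values were seen. Alternatives were an adjusted threshold of 0.1, an unadjusted one of 0.01, a mean of at least 1 CPM, recentring on the median of all genes or of the 500 nearest in level, and leaving out genes on chromosome 17 or with shared exons. Depth per library is unknown. Software was matplotlib 3.10.9, statsmodels 0.14.6, scipy 1.17.1, pandas 2.3.3 and numpy 2.4.6 under Python 3.11.15.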

Additional observations from a re-analysis of the deposited data

How the results depend on the processing

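None of the 10 genes passed after adjustment under any alternative run: a threshold of 0.1, genes with a mean of at least 1 CPM (smallest adjusted p of the 10 0.782) or recentring on the median of all genes (0.779). The count of 9 higher at an unadjusted p under 0.05 was 9 again among genes of at least 1 CPM and with fold changes recentred on the median of all genes or on the 500 genes nearest in level, where 3.14% and 3.12% of all genes were higher. Psme1, Psme2 and Tapbpl passed an unadjusted threshold of 0.05 but not 0.01, and Psmb10 passed neither. The median log2 fold change of 0.41 became 0.39 and 0.37 with the recentrings and 0.28 without the 5 genes on chromosome 17. An alternative chosen after seeing the data left out the 7 genes that share exonic bases with another gene. Of the 3 left (Psmb10, Psme2, Tapbpl), 2 were higher at an unadjusted p under 0.05 and the median was 0.23, on fewer genes by construction. All 10 genes kept their direction under both recentrings. No paired analysis was possible because the table holds no value per mouse, and for the same reason no mouse could be left out. The unknown depth and filter leave the precision of each level unknown.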
